A study of Mus musculus with 4 samples.

Results

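Oxidative phosphorylation is the mitochondrial pathway that turns the energy of NADH and succinate into ATP. Its genes were compared here between libraries labelled Gfi1b knockout (KO) and wild type (WT). They were chosen by symbol: nuclear genes whose mouse symbol starts with Nduf, Uqcr, Atp5 or Cox followed by a digit of 4 to 8, with Sdha, Sdhb, Sdhc, Sdhd, Cyc1 and Cycs, compared with genes whose symbol starts with mt-. Pseudogenes were left out, and a summed count of at least 40 over the 4 libraries was required. This left 100 of the 41214 gene identifiers in the files, 90 nuclear genes and 10 mitochondrially encoded ones (8 mRNAs and 2 rRNAs). All 100 also passed the filter on low counts of the test across genes.

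RNA was sequenced from megakaryocytes, the platelet-forming cells of bone marrow, of C57Bl/6 mice aged 8 weeks, isolated by a sort for cKit, CD41 and CD61 among cells free of lineage markers. The 4 groups, with 1 library each, were Gfi1b KO with PF4-Cre, Gfi1b WT with PF4-Cre, Gfi1b KO with ROSA-Cre and Gfi1b WT with ROSA-Cre, so every library carried a Cre label. Gfi1b encodes a zinc finger repressor of blood cell development, and the design asks how its loss changes megakaryocyte RNA in each of the Cre models. Pf4-driven Cre is active in the megakaryocyte lineage, whereas a Cre at the Rosa26 locus is not limited to it, and the labels say no more of that allele. How many mice went into each library is not given in the sources used here, so the spread between mice cannot be judged. With 1 library per group, the p-values of the main fit rest on how far the genotype change differs between the Cre models. That spread has 1 residual degree of freedom, is drawn toward a spread estimated over all genes, and may be technical. Gene counts came to 59595680 in PF4-Cre KO and 61652843 in PF4-Cre WT, against the shallower ROSA-Cre libraries with 21835165 in KO and 24869421 in WT. A count of 3, the limit that a count of 0 allows, corresponded to between 0.0496 and 0.134 CPM, the count scaled by library size after TMM adjustment.

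RNA of the targeted gene was higher, not lower, in the libraries labelled KO. Gfi1b had 84744 counts in PF4-Cre KO and 10137 in PF4-Cre WT, and 55122 in ROSA-Cre KO and 5864 in ROSA-Cre WT, a normalised level 8.26-fold and 10.3-fold higher in the libraries labelled KO. Counts per gene do not show which exons the reads came from, so they cannot show whether part of the gene was deleted. KO and WT in what follows are therefore the labels of the libraries, and each direction below rests on those labels. The sorted cells carried all 8 megakaryocyte markers examined, with summed levels of 7251 CPM in PF4-Cre KO, 6689 in PF4-Cre WT, 6190 in ROSA-Cre KO and 9396 in ROSA-Cre WT.

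The respiratory chain consists of complexes I to IV in the inner mitochondrial membrane. Complexes I and II pass electrons to coenzyme Q, complex III passes them on to cytochrome c, and complex IV passes them to oxygen. The protons pumped by complexes I, III and IV drive complex V, the ATP synthase. Most subunits are encoded in the nucleus and imported, while a small set of membrane subunits and the rRNAs of the mitochondrial ribosome are encoded by mitochondrial DNA, so complexes I, III, IV and V are assembled from both sources. In megakaryocytes and platelets mitochondria supply ATP beside glycolysis.

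Promoters of the nuclear genes are known to carry sites of the activators NRF1 and GABP (an ETS factor) and of YY1. Promoter windows of 300 bases (250 before to 50 after the RefSeq start, GRCm38.p6) were available for 73 of the 90 nuclear genes, 78 windows in all. Shown are the 150 bases before the start of 4 genes that were lower in the libraries labelled KO, chosen to show an NRF1 match, an ETS match, both and neither. Capitals mark matches to the letters GCGCA, any base, then GCGC (NRF1) in Ndufaf4 and Atp5h and CCGGAAG (ETS, on either strand) in Atp5h and Ndufb7. No searched motif occurs in the 150 bases of Atp5g1.
Ndufaf4, chr4:24897933-24898082, plus strand: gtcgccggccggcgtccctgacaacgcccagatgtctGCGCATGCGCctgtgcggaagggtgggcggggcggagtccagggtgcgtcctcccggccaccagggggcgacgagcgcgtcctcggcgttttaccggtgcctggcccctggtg
Atp5h, chr11:115419920-115420069, minus strand: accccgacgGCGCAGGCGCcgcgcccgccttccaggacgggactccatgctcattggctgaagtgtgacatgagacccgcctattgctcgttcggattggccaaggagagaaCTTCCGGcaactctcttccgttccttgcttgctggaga
Ndufb7, chr8:83566608-83566757, plus strand: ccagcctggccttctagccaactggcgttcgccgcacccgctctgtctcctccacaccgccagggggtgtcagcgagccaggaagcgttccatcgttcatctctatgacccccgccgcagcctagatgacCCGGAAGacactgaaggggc
Atp5g1, chr11:96075632-96075781, minus strand: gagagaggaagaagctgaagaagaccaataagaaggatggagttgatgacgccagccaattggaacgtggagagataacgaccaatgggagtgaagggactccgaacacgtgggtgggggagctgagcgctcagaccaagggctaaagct
Searched on both strands, the NRF1 letters occurred in 25.6% of the 78 windows of nuclear members, against 4.6% of all 32851 windows in the table. CCGGAAG occurred in 23.1% against 8.86% of all windows, and the YY1 letters AANATGGC in 23.1% against 6.05%. AAATCA, which holds the AATC core bound by the GFI1 family, occurred in 5.13% of members' windows and 14% of all windows. Among the 36 windows of genes that fell in the KO-labelled libraries, the shares were 25% for NRF1, 30.6% for ETS, 16.7% for YY1 and 2.78% for GFI1. Among the 42 windows of the other nuclear members they were 26.2%, 16.7%, 28.6% and 7.14% in the same order. A match is a run of letters and shows no binding, and these shares were not tested.

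The nuclear genes as a set stood lower in the libraries labelled KO. Of the 90, 38 were lower and 0 higher by the quasi-likelihood test of edgeR (Benjamini-Hochberg adjusted p under 0.05 over all 15063 genes tested), where 9.58% of all genes tested were lower and 12.6% higher. At an unadjusted p under 0.05, 63 were lower and 0 higher, and the share of all genes at that limit is not given here. The DESeq2 Wald test called 36 lower and also 0 higher. The log2 fold change was below 0 for 86 of the 90 (51.9% of all genes), with a median of -0.45 (quartiles -0.54 and -0.31) against -0.02 over all genes. The 38 called changes lay between -0.43 and -0.94, and their adjusted p between 0.0142 and 0.0499, with 22 of them at 0.03 or above. Both KO-labelled libraries lay below both WT-labelled ones for 66 of the 90 (23.7% of all genes), including 34 of the 38, and above both for none (23.4% of all genes). Where such a separation is named below for single genes, it is to be read against these shares. With 1 library left out the Cre model term cannot be kept, so these fits had genotype alone: without PF4-Cre KO, PF4-Cre WT, ROSA-Cre KO or ROSA-Cre WT 0 nuclear genes passed, with 12, 7, 0 and 4 lower at an unadjusted p under 0.05. With all 4 libraries, genotype alone also gave 0, so the loss of a library and the loss of the term cannot be told apart. The count was 2 without a filter on low counts, near the share of all genes lower in that setting, 2.4%. It was 27 after a correction for GC content and gene length, 24 of them among the 38, where 11.3% of all genes were lower.

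In summed level the 90 nuclear genes reached 10680 CPM in PF4-Cre KO and 13190 CPM in PF4-Cre WT, a ratio of 0.81 (95% Clopper-Pearson interval 0.807 to 0.812). They reached 8792 CPM in ROSA-Cre KO and 12720 CPM in ROSA-Cre WT, a ratio of 0.691 (0.687 to 0.695). The WT-labelled libraries of the models were thus near each other and the lowest library was ROSA-Cre KO. These intervals reflect counting error alone, because each ratio compares 1 library with 1 library. Without molecular identifiers several reads can stem from 1 molecule, so the intervals may be too narrow even for counting error. As a share of all gene counts, the nuclear genes took 1.08% in PF4-Cre KO and 1.28% in PF4-Cre WT, and 0.902% in ROSA-Cre KO and 1.26% in ROSA-Cre WT. In RNA of sorted cells in bulk, fewer cells of a type and less RNA per cell cannot be told apart.

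**Figure D1:**
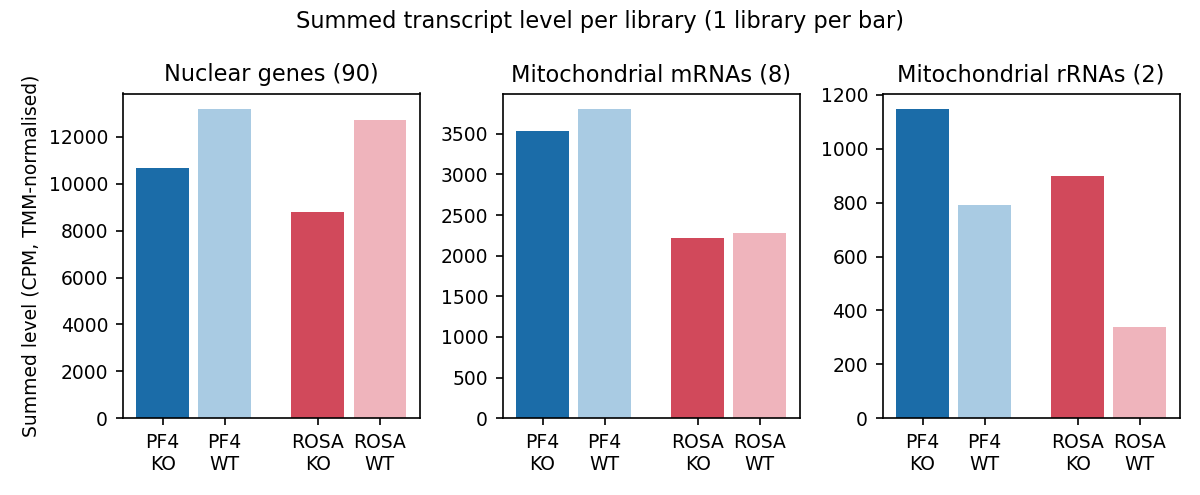
Summed level in CPM of the 90 nuclear genes, the 8 mitochondrial mRNAs and the 2 mitochondrial rRNAs, 1 bar per library. The nuclear sum is lower in the KO bar of each Cre model, the mRNA sum differs between models more than between genotypes, and the rRNA sum is higher in both KO bars.

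The ratio KO over WT was lower in ROSA-Cre than in PF4-Cre for 81 of the 90 nuclear genes (47.2% of all genes) and for 37 of the 38 called ones. The median log2 ratio, KO over WT with a pseudocount of 1, was -0.32 in PF4-Cre and -0.57 in ROSA-Cre, against -0.05 and -0.00 over all genes. Ratios lay below 1 for 85 genes in PF4-Cre (54.4% of all genes) and 86 in ROSA-Cre (50.1%). A level lower by at least 1.5-fold was reached by 2 genes in PF4-Cre (8.32% of all genes) and by 44 in ROSA-Cre (18.1%), and one higher by that factor by 1 in PF4-Cre (16.7%) and by 0 in ROSA-Cre (22.2%). Those beyond it in PF4-Cre were Cox7a1 and Atp5g1 downward and Cox4i2 upward. Cox7a1 had 11 counts in PF4-Cre KO and 20 in PF4-Cre WT, and its interval of 0.235 to 1.19 holds a ratio of 1. It passed the filter on low counts only through the WT-labelled libraries, where it is high, so its fall in either model is no support for a lower set. With 1 library per group the difference between models was not tested. Across the 90 genes the log2 ratios of the models had a Pearson r of 0.24 and a Spearman rho of 0.65, against 0.72 and 0.68 over all 15063 genes. Cox4i2 and Cox7a1, with 20 counts or fewer per library, had log2 ratios of 1.31 and -0.82 in PF4-Cre and -1.88 and -2.36 in ROSA-Cre. The part of such low counts in the Pearson value was not tested. The points share the same 4 libraries and genes are not independent replicates.

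**Figure D2:**
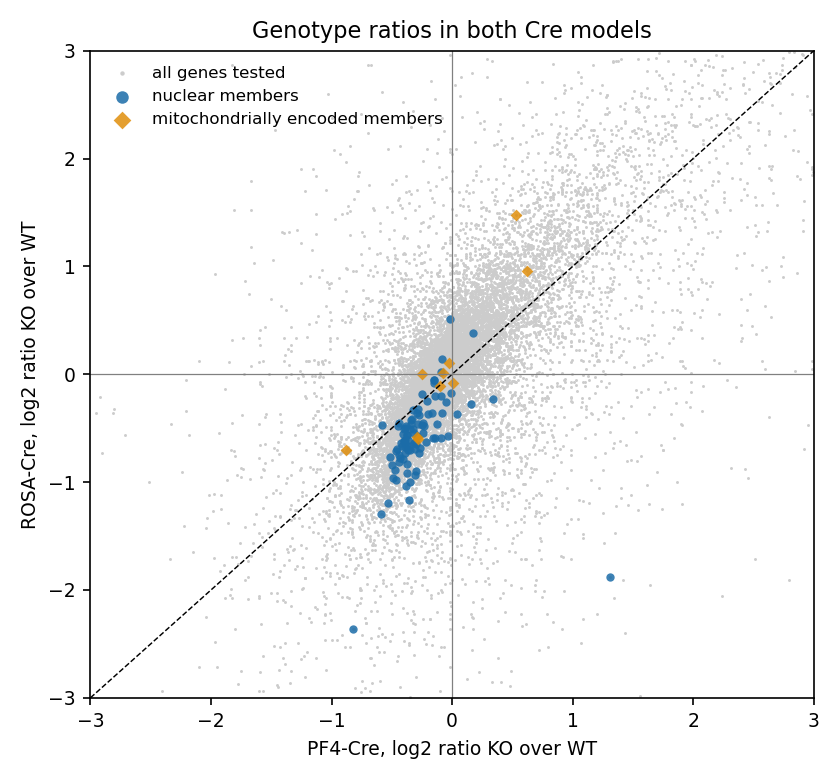
Log2 ratio KO over WT in PF4-Cre (x axis) and ROSA-Cre (y axis), with all genes tested in grey (those beyond 3 on either axis not shown), nuclear members as blue circles and mitochondrially encoded members as orange diamonds. Most blue circles lie at the lower left and below the dashed line of equal ratios, where 81 of 90 nuclear genes have the lower ratio in ROSA-Cre, and both rRNAs lie at the upper right.

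**Figure D3:**
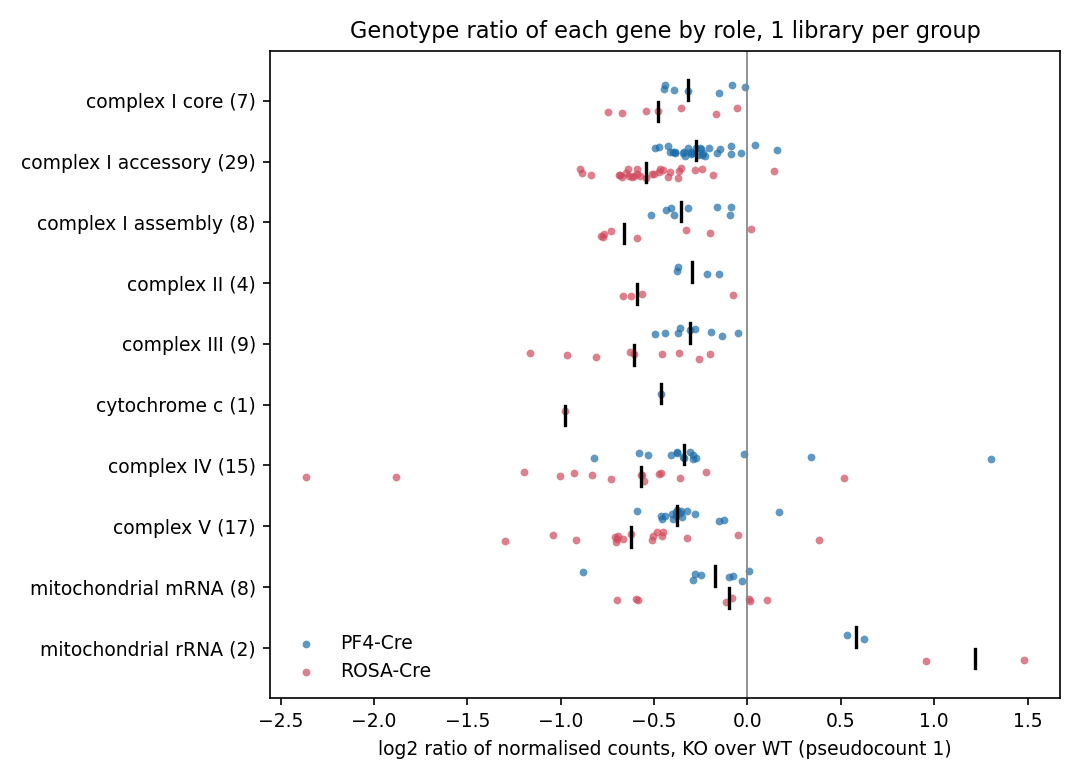
Log2 ratio KO over WT (pseudocount 1) of each of the 100 genes by role, PF4-Cre in blue above ROSA-Cre in red, 1 point per gene and a black bar at the median. Medians of every nuclear role lie below 0 in both models and further below 0 in ROSA-Cre, and those of the rRNAs lie above 0.

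Complex I oxidises NADH, and 11 of its 36 subunit genes fell. Of the 7 core subunits, which carry the cofactors, 3 fell (median log2 fold change -0.43), as did 8 of the 29 accessory subunits (median -0.38) and 1 of the 8 assembly factors (median -0.46), a number near the 9.58% of all genes that were lower. Summed over its 36 subunit genes, complex I stood at 2596 CPM in PF4-Cre KO and 3088 in PF4-Cre WT, and at 2228 CPM in ROSA-Cre KO and 3093 in ROSA-Cre WT.

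Among the core subunits, Ndufs8, an iron-sulfur subunit, had 53.6 CPM (PF4-Cre) and 45.8 CPM (ROSA-Cre) in KO-labelled libraries, against 72.8 and 77.0 CPM in WT-labelled ones. Its log2 fold change was -0.59 (SE 0.14, edgeR adjusted p = 0.0255). Ndufv1, which binds NADH and the flavin, changed by -0.46 (SE 0.12, adjusted p = 0.0308), with 127 and 131 CPM in KO and 173 and 183 CPM in WT. Neither gene's groups overlapped. Ndufv2, the iron-sulfur partner of Ndufv1, had 111 and 80.4 CPM in KO, against 146 and 128 CPM in WT (log2 fold change -0.53, SE 0.13, adjusted p = 0.0282). The core genes Ndufs1, Ndufs3 and Ndufs7 did not pass.

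The 8 accessory genes that fell were Ndufa2, Ndufa11, Ndufa12, Ndufb5, Ndufb7, Ndufb8, Ndufb10 and Ndufc2. Ndufb7, an accessory subunit of the membrane arm (ENSMUSG00000033938, chr8:83566671-83571626, plus strand, GRCm38), had 65.6 CPM (PF4-Cre) and 72.3 CPM (ROSA-Cre) in KO-labelled libraries, against 91.0 and 134 CPM in WT-labelled ones. The lower WT library stood above the higher KO library, and the log2 fold change was -0.68 (SE 0.14, adjusted p = 0.0185). Its promoter is the one shown above with an ETS match. Ndufb8, also of the membrane arm, had 111 and 106 CPM in KO, against 148 and 168 CPM in WT (-0.54, SE 0.13, adjusted p = 0.0248). Ndufa11, another membrane-arm subunit, had 20.0 and 24.6 CPM in KO, against 28.2 and 44.0 CPM in WT (-0.66, SE 0.17, adjusted p = 0.0317). The KO and WT values of both genes lay apart. Ndufb9, with the highest level per length of the accessory genes (113 CPM per kilobase), had 106 and 97.7 CPM in KO and 126 and 135 CPM in WT and missed the threshold (-0.36, SE 0.12, adjusted p = 0.0777).

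Of the assembly factors, which are not part of the finished complex, Ndufaf4 had 51.7 CPM (PF4-Cre) and 22.1 CPM (ROSA-Cre) in KO, against 69.9 and 37.8 CPM in WT. It was lower in the KO library of each model, but the PF4-Cre KO library stood above the ROSA-Cre WT one, and the log2 fold change of -0.60 (SE 0.15, adjusted p = 0.032) is taken within models. Ndufaf8 had the highest level per length of the assembly factors (17.95 CPM per kilobase), a low level beside the subunits, whose medians were 48.3 for core and 37.4 CPM per kilobase for accessory genes. It had 11.02 and 12.2 CPM in KO and 15.8 and 20.8 CPM in WT (-0.64, SE 0.20, adjusted p = 0.0584). Ndufaf2 had 17.2 and 12.1 CPM in KO and 22.6 and 20.1 CPM in WT (-0.55, SE 0.19, adjusted p = 0.0817), and 65.6% of its exonic length is shared with a noncoding gene on the opposite strand. Neither Ndufaf8 nor Ndufaf2 passed, though no KO library of either reached a WT one.

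Complex II, succinate dehydrogenase, links the citric acid cycle to the chain and is the complex encoded in the nucleus alone. Sdhb and Sdhd fell and Sdha and Sdhc did not pass. Sdhb, the iron-sulfur subunit, had 105 CPM (PF4-Cre) and 86.9 CPM (ROSA-Cre) in KO, against 136 and 138 CPM in WT (log2 fold change -0.52, SE 0.13, adjusted p = 0.0306). Sdhd, a membrane anchor, had 160 and 110 CPM in KO, against 208 and 163 CPM in WT (-0.47, SE 0.12, adjusted p = 0.0337). Sdhc, the other anchor, had 109 and 92.7 CPM in KO and 127 and 143 CPM in WT and missed the threshold (-0.42, SE 0.14, adjusted p = 0.0708). Sdha, the catalytic flavoprotein, had 298 and 308 CPM in KO and 332 and 326 CPM in WT, with a change of -0.12 (SE 0.12, adjusted p = 0.525). In each of the 4 genes both KO libraries lay below both WT ones, as in 23.7% of all genes tested, so this alone does not make Sdha or Sdhc lower. The PF4-Cre KO and ROSA-Cre WT values of Sdhd nearly met.

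Complex III carries electrons from coenzyme Q to cytochrome c, and 4 of its 9 genes fell (Cyc1, Uqcr10, Uqcr11 and Uqcrc1, median of all 9 -0.47). Cyc1, which encodes cytochrome c1 (ENSMUSG00000022551, chr15:76343523-76346260, plus strand, GRCm38), had 53.2 CPM (PF4-Cre) and 52.9 CPM (ROSA-Cre) in KO-labelled libraries, against 74.9 and 103 CPM in WT-labelled ones. The KO libraries had nearly the same level and the spread was between the WT ones (log2 fold change -0.73, SE 0.15, adjusted p = 0.0183). Uqcr11, a small subunit, had 74.8 and 75.4 CPM in KO, against 102 and 132 CPM in WT (-0.63, SE 0.14, adjusted p = 0.021). Uqcrc1, a core protein, had 173 and 163 CPM in KO, against 224 and 249 CPM in WT (-0.49, SE 0.12, adjusted p = 0.0326). Both genes shared this pattern of close KO values under higher WT values. Uqcr10, with the highest level per length of the complex (159 CPM per kilobase), had 88.5 and 68.1 CPM in KO, against 110 and 105 CPM in WT (-0.47, SE 0.13, adjusted p = 0.0457). Uqcrq was among the genes with the largest gap between models, with 4.89 and 5.63 CPM in KO and 6.29 and 12.7 CPM in WT (-0.73, SE 0.28, adjusted p = 0.107).

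Cycs, which encodes the mobile carrier cytochrome c, also released in apoptosis, had 59.3 CPM (PF4-Cre) and 31.7 CPM (ROSA-Cre) in KO, against 81.6 and 62.4 CPM in WT. Both KO libraries lay below both WT ones, although PF4-Cre KO and ROSA-Cre WT nearly met. The log2 fold change was -0.71 (SE 0.16, adjusted p = 0.023).

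Complex IV, cytochrome c oxidase, had 8 of 15 nuclear genes lower (Cox5a, Cox5b, Cox6b1, Cox7a2, Cox7b, Cox7c, Cox8a and Ndufa4, median of all 15 -0.48). Its summed nuclear level was 1599 CPM in PF4-Cre KO and 2020 in PF4-Cre WT, and 1396 CPM in ROSA-Cre KO and 1994 in ROSA-Cre WT. Cox5a, a subunit of the matrix side (ENSMUSG00000000088, chr9:57521274-57532426, plus strand, GRCm38), had 92.4 CPM (PF4-Cre) and 54.3 CPM (ROSA-Cre) in KO-labelled libraries, against 134 and 125 CPM in WT-labelled ones. The WT libraries were close and the ROSA-Cre KO library was by far the lowest (log2 fold change -0.86, SE 0.17, adjusted p = 0.0159). An antisense noncoding gene shares 12.8% of its exonic length. Cox5b, which binds zinc, had 96.3 and 94.5 CPM in KO, against 122 and 189 CPM in WT (-0.67, SE 0.17, adjusted p = 0.0319). Here the KO libraries were alike and the WT ones apart. Ndufa4, long assigned to complex I and now to complex IV, had 121 and 88.5 CPM in KO, against 180 and 123 CPM in WT (-0.53, SE 0.12, adjusted p = 0.0221). Its ratio in PF4-Cre, 0.669, was lower than in ROSA-Cre, 0.72, unlike in most of the nuclear genes.

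Several complex IV subunits exist as alternative isoforms, and the ubiquitous forms made up nearly all of the RNA. Per kilobase of exon, Cox4i1 had 178 and 187 CPM in KO and 218 and 240 CPM in WT, while Cox4i2, the form of lung and hypoxic cells, stayed under 1 CPM per kilobase in all 4 libraries. Cox6b1 had 249 and 187 CPM per kilobase in KO and 302 and 311 in WT, while the testis form Cox6b2 had 6.95 and 8.06 in KO and 5.48 and 9.42 in WT. Cox7a2 had 124 and 92.5 CPM per kilobase in KO and 160 and 137 in WT, while the muscle form Cox7a1, with 42 counts in all, also stayed under 1. In the families with a ubiquitous and a tissue form, the ubiquitous Cox6b1 (log2 fold change -0.50, SE 0.14, adjusted p = 0.0455) and Cox7a2 (-0.47, SE 0.12, adjusted p = 0.0345) fell. Cox4i1 (-0.33, SE 0.12, adjusted p = 0.0935) and Cox6a1 (-0.43, SE 0.13, adjusted p = 0.0547) missed the threshold. Cox8a, the highest in level per length of the complex (271 CPM per kilobase on average), changed by -0.48 (SE 0.12, adjusted p = 0.0301). Cox7b, a small membrane subunit, changed by -0.60 (SE 0.14, adjusted p = 0.0271).

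Cox7a2l, which encodes a factor that joins complexes III and IV into supercomplexes, did not share the direction of its relatives. It had 146 CPM (PF4-Cre) and 206 CPM (ROSA-Cre) in KO, against 148 and 144 CPM in WT. The ROSA-Cre KO library stood above the other 3, which were alike, and the log2 fold change of 0.25 (SE 0.15) did not pass (adjusted p = 0.282). It was 1 of 4 nuclear genes with a log2 fold change above 0, the others being Cox6b2, Ndufb11 and Atp5s, none of which passed.

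**Figure D4:**
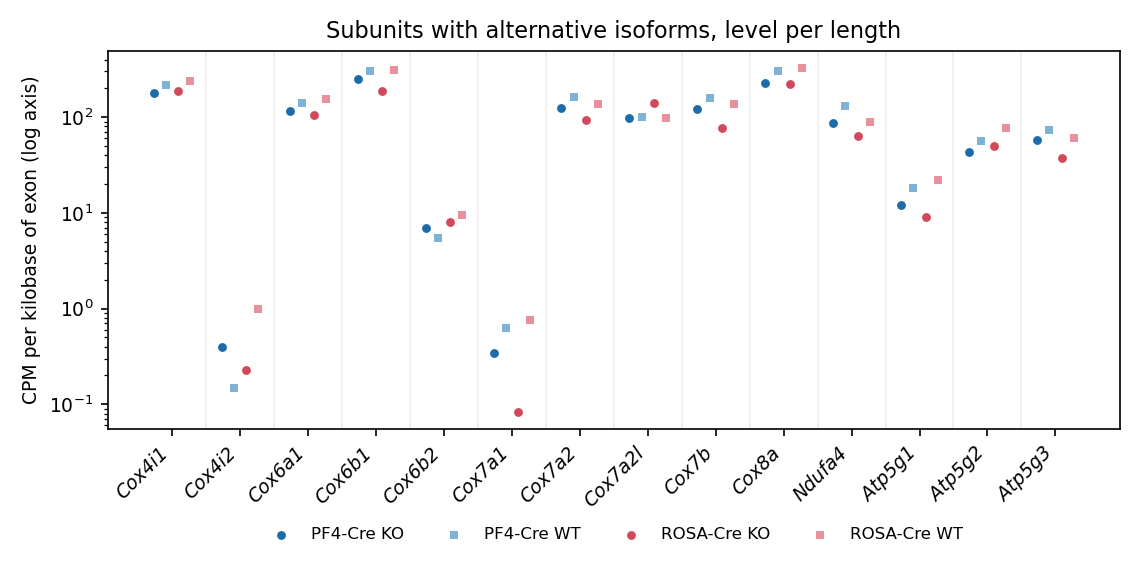
Level in CPM per kilobase of exon (log axis) of the subunits of complexes IV and V that exist as isoforms, 1 point per library, circles for KO and squares for WT. Cox4i2 and Cox7a1 lie below 1 CPM per kilobase and Cox6b2 below 10, far under their ubiquitous counterparts.

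Complex V, the ATP synthase, had 11 of 17 genes lower (Atp5d, Atp5e, Atp5g1, Atp5g2, Atp5g3, Atp5h, Atp5j2, Atp5k, Atp5l, Atp5mpl and Atp5o), with a median over all 17 of -0.51. Its summed level was 4601 CPM in PF4-Cre KO and 5820 in PF4-Cre WT, and 3625 CPM in ROSA-Cre KO and 5493 in ROSA-Cre WT. The large alpha and beta subunits did not pass. Atp5a1, the alpha subunit and the highest nuclear gene in level per length (468 CPM per kilobase on average), had 1407 and 1114 CPM in KO and 1761 and 1588 CPM in WT (-0.42, SE 0.16, adjusted p = 0.111). Atp5b, the beta subunit, named after its values were seen because it had the highest CPM, had 1432 and 1126 CPM in KO and 1842 and 1836 CPM in WT (-0.53, adjusted p = 0.0673). In both genes the KO libraries lay below the WT ones.

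Atp5g1, Atp5g2 and Atp5g3 encode the same mature ring subunit c with different import sequences, and all 3 fell. Atp5g1 (ENSMUSG00000006057, chr11:96068852-96075670, minus strand, GRCm38) had 59.3 CPM (PF4-Cre) and 44.2 CPM (ROSA-Cre) in KO-labelled libraries, against 89.2 and 109 CPM in WT-labelled ones. The groups lay well apart, and its log2 fold change of -0.94 (SE 0.18, adjusted p = 0.0142) was the largest among the called nuclear genes. Atp5g2 had 71.8 and 84.4 CPM in KO, against 94.99 and 130 CPM in WT (-0.51, SE 0.13, adjusted p = 0.0295). Atp5g3 had 126 and 81.2 CPM in KO, against 160 and 132 CPM in WT (-0.52, SE 0.13, adjusted p = 0.0334). Per kilobase of exon Atp5g1 was the lowest of the 3 in every library, at 12.1 and 9.01 CPM per kilobase in KO and 18.2 and 22.1 in WT, against 37.2 or more for Atp5g3. The gap depends on the length used, all annotated exons joined, which is 4912 bases for Atp5g1, 1675 for Atp5g2 and 2181 for Atp5g3. In CPM Atp5g1 was also the lowest in every library, but closer to the others.

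Atp5o encodes the stalk protein that confers oligomycin sensitivity. It had 140 CPM (PF4-Cre) and 108 CPM (ROSA-Cre) in KO, against 193 and 177 CPM in WT (-0.59, SE 0.12, adjusted p = 0.0189), and antisense genes share up to 18.1% of its exonic length. Atp5h, subunit d of the stalk, whose promoter above held both an NRF1 and an ETS match, had 126 and 125 CPM in KO, against 173 and 202 CPM in WT (-0.57, SE 0.12, adjusted p = 0.0197). Neither gene's KO values reached its WT values.

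Of the 8 mitochondrially encoded mRNAs, 0 were lower and 0 higher by edgeR's quasi-likelihood test, where 9.58% of all genes were lower and 12.6% higher, and 1 was lower at an unadjusted p under 0.05. Their median log2 fold change was -0.11, and 7 of the 8 lay below 0 (51.9% of all genes). The ratio KO over WT lay below 1 for 7 of them in PF4-Cre and 5 in ROSA-Cre. Their summed level was 3537 CPM in PF4-Cre KO and 3806 CPM in PF4-Cre WT, a ratio of 0.929 (0.924 to 0.935), and 2221 CPM in ROSA-Cre KO and 2275 CPM in ROSA-Cre WT, a ratio of 0.976 (0.964 to 0.988). The ROSA-Cre ratio was 1.02 when counts were taken as a share of nuclear protein-coding counts and 1.01 with library totals. Per 100 counts of the nuclear genes, the mitochondrial mRNAs had 33.1 counts in PF4-Cre KO and 28.9 in PF4-Cre WT, and 25.3 in ROSA-Cre KO and 17.9 in ROSA-Cre WT. The balance was thus higher in the KO-labelled library of each model, and the difference between nuclear and mitochondrial genes was not tested. The sums and the balance mostly follow mt-Co1. Without it the mitochondrial mRNAs summed to 784 CPM in PF4-Cre KO and 902 in PF4-Cre WT, and to 552 CPM in ROSA-Cre KO and 622 in ROSA-Cre WT.

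mt-Co1, the catalytic subunit of complex IV, made up most of these counts, with 2753 CPM (PF4-Cre) and 1669 CPM (ROSA-Cre) in KO, against 2905 and 1653 CPM in WT (log2 fold change -0.03, adjusted p = 0.918). mt-Cytb of complex III had 214 and 241 CPM in KO and 254 and 240 CPM in WT (-0.12, adjusted p = 0.524). mt-Nd2, a membrane subunit of complex I, had 91.9 and 40.8 CPM in KO and 98.6 and 44.1 CPM in WT (-0.11, adjusted p = 0.58). The ratio of mt-Cytb was 0.841 in PF4-Cre (0.822 to 0.861) and 1.01 in ROSA-Cre (0.968 to 1.04), so it was lower in KO beyond counting error in PF4-Cre alone. mt-Nd4 and mt-Nd5, the large proton-pumping subunits, had log2 fold changes of 0.04 and -0.04, and mt-Nd6, the subunit on the light strand, -0.43 (SE 0.21, adjusted p = 0.188). mt-Nd1, a complex I subunit at the quinone site, had 297 and 128 CPM in KO, against 363 and 191 CPM in WT, lower in KO within each model but with PF4-Cre KO above ROSA-Cre WT. Its log2 fold change of -0.44 (SE 0.13) just missed the threshold (adjusted p = 0.0511) and passed by the DESeq2 Wald test (adjusted p = 0.0472) and after the GC and length correction (edgeR adjusted p = 0.0405).

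A run of neighbouring mitochondrial genes had almost no counts. mt-Co1 had between 37382 and 173665 counts per library, but the next mRNA genes mt-Co2, mt-Atp8, mt-Atp6, mt-Co3, mt-Nd3 and mt-Nd4l (chrM:7013-10173, GRCm38) had 30 or fewer in every library, and mt-Nd4, which follows, again had 1514 to 4890. Of these 6, only mt-Co3, with 55 counts in all, reached the minimum of 40, and its log2 fold change of -0.90 (SE 0.51, adjusted p = 0.242) rests on 16 and 3 counts in KO and 30 and 6 in WT. Alignments to more than 1 place were assigned to no gene and numbered between 22523015 and 73166767 per library. Their part in the gap was not tested. Of this run only mt-Co3, with its 55 counts, is part of the sums of mitochondrial mRNAs. The 22 mitochondrial tRNAs had 14 counts or fewer each over the 4 libraries.

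**Figure D5:**
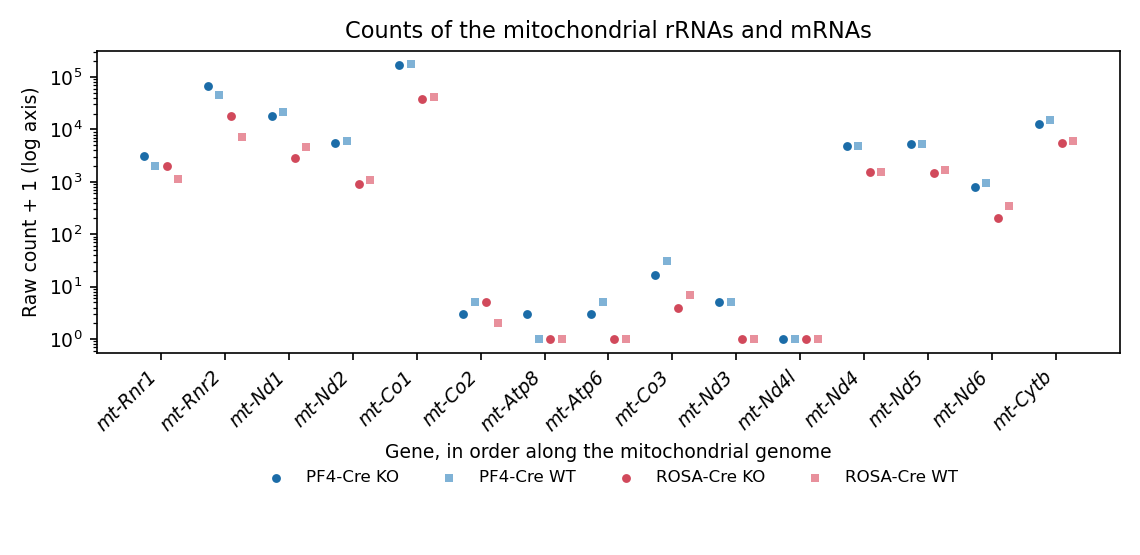
Raw count plus 1 (log axis) of the mitochondrial rRNAs and mRNAs in their order along the mitochondrial genome, 1 point per library, circles for KO and squares for WT. The 6 genes from mt-Co2 to mt-Nd4l lie at 30 counts or fewer between neighbours with far more, and both rRNAs have more counts in the KO point of each model.

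The 2 rRNAs of the mitochondrial ribosome went the other way from the nuclear genes. mt-Rnr2, the large rRNA (ENSMUSG00000064339, chrM:1094-2675, plus strand, GRCm38), had 1097 CPM (PF4-Cre) and 810 CPM (ROSA-Cre) in KO-labelled libraries, against 758 and 291 CPM in WT-labelled ones (log2 fold change 1.005, SE 0.23, adjusted p = 0.0226). mt-Rnr1, the small rRNA, had 51.2 and 89.6 CPM in KO, against 33.2 and 46.2 CPM in WT (0.79, SE 0.14, adjusted p = 0.0116). In both genes both KO libraries lay above both WT libraries, as in 23.4% of all genes tested. Their sum was 1.45-fold higher in PF4-Cre KO (1.43 to 1.47) and 2.67-fold higher in ROSA-Cre KO (2.61 to 2.74). The counts of mt-Rnr2 per count of mt-Rnr1, products of the same primary transcript, were 21.4 in PF4-Cre KO and 22.8 in PF4-Cre WT, and 9.05 in ROSA-Cre KO and 6.29 in ROSA-Cre WT. The kit named in the labels selects mRNA, and the share of small RNA genes Rn7sk, Rpph1 and Rmrp, which lack a long poly(A) tail, moved the same way, with 1.94% of gene counts in PF4-Cre KO and 1.74% in PF4-Cre WT, and 3.33% in ROSA-Cre KO and 2.40% in ROSA-Cre WT. The repeat-like genes Gm26917 and Gm42418 had 0.223% of gene counts in PF4-Cre KO and 0.214% in PF4-Cre WT, but 0.932% in ROSA-Cre KO and 1.78% in ROSA-Cre WT, lower in KO of that model. The part of these RNAs in the rRNA result was not tested. In fits with genotype alone, 0 of the 2 rRNAs passed with all 4 libraries, 0 without ROSA-Cre KO, ROSA-Cre WT or PF4-Cre KO, and 1 without PF4-Cre WT.

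Between the Cre models, 15 nuclear genes were lower in ROSA-Cre than in PF4-Cre libraries and 0 higher by edgeR's quasi-likelihood test, where 10.4% of all genes were lower and 8.32% higher. Ndufaf4 had 22.1 CPM in KO and 37.8 in WT of ROSA-Cre, against 51.7 in KO and 69.9 in WT of PF4-Cre (log2 fold change -1.05, SE 0.15, adjusted p = 0.00735). Cox6c, a small complex IV subunit, had 81.9 CPM in KO and 113 in WT of ROSA-Cre, against 131 in KO and 166 in WT of PF4-Cre (-0.62, SE 0.12, adjusted p = 0.0165). Uqcrc2, a complex III core protein, had 146 CPM in KO and 174 in WT of ROSA-Cre, against 241 in KO and 250 in WT of PF4-Cre (-0.62, SE 0.12, adjusted p = 0.0174), and shares 19.7% of its exonic length with an opposite-strand gene. In all 3 genes both ROSA-Cre libraries lay below both PF4-Cre libraries. Of the mitochondrial genes, mt-Nd2 (-1.17, SE 0.13, adjusted p = 0.00411), mt-Nd1 (-1.07, SE 0.13, adjusted p = 0.00517), mt-Co1 (-0.77, SE 0.18, adjusted p = 0.0295) and mt-Rnr2 (-0.91, SE 0.23, adjusted p = 0.0343) were lower in ROSA-Cre, and mt-Rnr1 was higher (0.64, SE 0.14, adjusted p = 0.0251). The upward nuclear changes with the smallest p, in Ndufa11, Atp5g2 and Ndufb7, were 0.47, 0.34 and 0.35 and did not pass. Only 3 of the nuclear genes were lower after the GC and length correction, 4 without a filter on low counts, and 0 with Cre model as the only term, be it on all 4 libraries or with any 1 left out. The nuclear members are short, with a median exonic length of 1737 bases against 3995 over all genes. Cre model and sequencing depth cannot be told apart here.

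Other genes that serve the pathway were counted from lists. Of 34 assembly factors of complexes II to V, 2 fell and 1 rose, no larger a share than the 9.58% lower and 12.6% higher among all genes. Uqcc2, needed for complex III assembly, had 48.2 and 38.3 CPM in KO, against 73.7 and 82.8 CPM in WT (log2 fold change -0.86, SE 0.16, adjusted p = 0.012), and Hccs, which attaches haem to cytochromes c and c1, fell by 0.60 (adjusted p = 0.0333). Cox20, a chaperone of the complex IV subunit encoded by mt-Co2, rose by 0.83 (adjusted p = 0.028). Of 7 complex I assembly factors outside the symbol rule only Foxred1 fell (-0.43, adjusted p = 0.0488). Of 11 genes of coenzyme Q synthesis, Pdss1 (-0.88) and Coq7 (-0.74) fell and Coq8a, a kinase-like regulator, rose, with 41.6 and 51.9 CPM in KO, against 19.0 and 23.4 CPM in WT (1.14, SE 0.15, adjusted p = 0.00372).

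In the next 6 lists 0 genes rose, and falls are to be read against the 9.58% of all genes that were lower. Of 24 genes of protein import 10 fell, among them the outer membrane pore gene Tomm40 (-0.89, SE 0.19, adjusted p = 0.0197), Tomm5 (-0.73) and the inner membrane channel gene Timm23 (-0.80). Of 11 carriers, porins and uncoupling genes 6 fell, among them the ADP/ATP carrier gene Slc25a5, with 433 and 254 CPM in KO, against 629 and 590 CPM in WT (-0.88, SE 0.18, adjusted p = 0.0171), Ucp2 (-0.70) and Slc25a10 (-0.66). Of 10 cristae and supercomplex genes 6 fell, among them Samm50 (-0.71), Phb2 (-0.61) and Phb (-0.60). Of 14 citric acid cycle genes 7 fell, among them Idh2 (-0.70, SE 0.13, adjusted p = 0.013), Idh3a (-0.60) and Mdh2 (-0.56). Of 12 genes of pyruvate entry 2 fell, Pdk3 (-0.64) and Dlat (-0.51), and of 17 genes of fatty acid oxidation 1 fell, Acads (-0.45), numbers near the share of all genes. Median log2 fold changes were -0.46 for import, -0.45 for carriers, -0.56 for cristae, -0.37 for the citric acid cycle, -0.25 for pyruvate entry and -0.15 for fatty acid oxidation, beside -0.02 over all genes.

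Among genes for mitochondrial gene expression, 2 of 14 for RNA processing fell, Lrpprc (-0.62, adjusted p = 0.0241), which stabilises mitochondrial mRNAs, and the tRNA-processing nuclease gene Elac2 (-0.60, adjusted p = 0.0222). Of 14 genes of mitochondrial DNA replication and transcription only Polg, the DNA polymerase, changed. It had 241 and 252 CPM in KO, against 117 and 147 CPM in WT (log2 fold change 0.91, SE 0.13, adjusted p = 0.00468). The median of that list was -0.01. The counts of both lists are near the shares of all genes, 9.58% lower and 12.6% higher.

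Of 14 regulators of mitochondrial biogenesis tested, 3 fell and 2 rose, where 9.58% of all genes were lower and 12.6% higher. The transcription factor Myc had 26.1 CPM (PF4-Cre) and 32.3 CPM (ROSA-Cre) in KO, against 40.04 and 51.2 CPM in WT (-0.64, SE 0.14, adjusted p = 0.0221). Pprc1, a coactivator of the PGC-1 family, fell by 0.63 (SE 0.17, adjusted p = 0.0391), and its change was 0.069 without ROSA-Cre WT. The nuclear receptor gene Esrra fell by 0.49 (SE 0.15, adjusted p = 0.0496). Ppargc1a, which encodes the coactivator PGC-1 alpha, known as an inducer of oxidative phosphorylation genes, had 96 counts in PF4-Cre KO and 4 in PF4-Cre WT, a 23.7-fold ratio, and 32 counts in ROSA-Cre KO and 0 in ROSA-Cre WT, at least 11.7-fold higher against a floor of 3 counts in that library. It passed the filter on low counts only through the KO-labelled libraries, where it is high. The genotype log2 fold change of Ppargc1a had an edgeR adjusted p of 0.00325, and of 0.00997 without that filter, where every gene with a count is tested. Over all alternatives it ranged from 0.000877 to 0.0578, the highest without PF4-Cre WT in the fit with genotype alone. Its level in KO stayed low, at 1.59 and 1.43 CPM. Ppard rose by 0.80 (SE 0.21, adjusted p = 0.0344). The factors whose motifs were searched did not pass: Nrf1 had a change of -0.34 (SE 0.12, adjusted p = 0.0804), Gabpa -0.16, Gabpb1 0.50, Gabpb2 -0.01 and Yy1 -0.15. Ppargc1b (-0.63, adjusted p = 0.0816), Mycn (-0.21) and Hif1a (0.23) did not pass either.

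Markers of other states and cells were counted as well, to be read against the 9.58% of all genes lower and the 12.6% higher. Of 11 genes of S phase and division 8 fell, and their summed level was 4991 CPM in PF4-Cre KO and 6856 in PF4-Cre WT, and 3843 CPM in ROSA-Cre KO and 5896 in ROSA-Cre WT. Of 8 neutrophil markers 4 fell (Elane, Mpo, Prtn3 and Ctsg), with 1003 CPM in PF4-Cre KO and 1676 in PF4-Cre WT, and 467 CPM in ROSA-Cre KO and 1798 in ROSA-Cre WT. Of 4 monocyte markers 2 fell, with sums from 38.9 to 49.8 CPM in KO and from 69.3 to 117 CPM in WT. Of 6 erythroid markers 2 rose and 1 fell, with sums of 167 and 270 CPM in KO and 31.1 and 81.4 CPM in WT. These sums do not give the direction of most of the 6, as 4 had a log2 fold change below 0 (median -0.19). Their median log2 ratio was 1.07 in PF4-Cre and -1.61 in ROSA-Cre. Of 8 megakaryocyte markers 2 rose and 2 fell. Of 4 mast cell markers 1 rose, with 39.9 to 70.5 CPM in KO and 32.5 to 51.5 CPM in WT. Lymphoid markers summed to at most 2.46 CPM in any library, with Cd3e at 0 counts in both ROSA-Cre libraries, and the endothelial marker Cdh5 had at most 5 counts in a library. The endothelial list, with Pecam1 and Kdr, summed to 208 and 203 CPM in KO and 147 and 168 CPM in WT. The part of these cells and states in the lower nuclear members was not tested. Across the 90 nuclear genes the log2 fold change had a Pearson r of -0.06 with GC percent, 0.11 with log2 exonic length and 0.08 with log2 mean CPM, as a description over genes that share the same libraries.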

How the data were processed

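Libraries of RNA isolated on MagMax-96 were prepared with a TruSeq kit that selects mRNA and keeps strand, and read from both ends, per the labels' protocols. TopHat2 2.0.10, SAMtools, HTSeq and DESeq are named in the submitters' processing notes, as are mm10 and GRCm38. Neither the annotation release nor the strand setting of the counting is given in the sources used here, so reads of overlapping genes cannot be told apart: 11 of the 90 nuclear members share at least 10% of their exonic length with another gene. The authors deposited raw counts per Ensembl gene, 1 table per library, not normalised. The 5 lines of HTSeq categories stayed out of all sums, and reads with no gene were 32.0% to 36.2% of uniquely aligned reads. Alignments to several places go to no gene, so members with near-identical pseudogenes may be undercounted.

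Symbols were found for 40254 of the 41214 identifiers (GENCODE release M21, GRCm38). Genes were kept by filterByExpr with genotype as the group and a minimum count of 10, scaled with TMM and fitted on Cre model plus genotype in edgeR 4.0.16 (R 4.3.3), with the quasi-likelihood F-test and Benjamini-Hochberg adjustment over 15063 genes at 0.05. This left 1 residual degree of freedom and 6.26 prior degrees of freedom. CPM values use TMM library sizes, and levels of different genes were compared per kilobase of exon. Exonic length joins all annotated exons of a gene, so levels per kilobase depend on the annotation. Within a model, ratios of normalised counts carry 95% Clopper-Pearson intervals for counting error only. Fold limits used a pseudocount of 1. Promoter sequences are from RefSeq (GRCm38.p6).

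The members and gene lists were chosen with earlier results of these data known. Named were Cycs, Cyc1, the Sdh genes, the mitochondrial mRNAs and rRNAs, members with alternative isoforms, and in each role the 3 genes with the smallest p and the one with the highest level per length. Also named were 6 genes with the largest difference between models, 3 each way for the Cre model effect, up to 3 called genes each way per list, and regulators with a mean of at least 1 CPM. Other members were named as parts of complete lists of calls. The values of 1 member are not reported here. The symbol rule matched 95 nuclear genes, 5 of them under the minimum count, and 37 mitochondrial ones, 27 of them under it. Just inside the minimum were Cox7a1 with 42, Cox4i2 with 49 and mt-Co3 with 55 counts, and just outside Cox6a2 and mt-Tm with 14 each and mt-Co2 with 11. Of 11 pseudogenes left out, 2 had at least 40 counts. Fastkd4, Micos10 and Micos13 matched no identifier. Alternatives were DESeq2 1.42.0 size factors and Wald test, other scalings and filters, older and robust quasi-likelihood settings, an offset removing each library's trend on GC and length (splines of 4 degrees of freedom), models without the other term, and each library left out in turn.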

Additional observations from a re-analysis of the deposited data

Results flagged for a closer look

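3 nuclear genes moved in opposite directions in the Cre models, with both counting intervals away from 1. The share of all genes that did so is not given here, so the number cannot be read as particular to the nuclear members. Cox4i2, the lung isoform of complex IV, had a ratio KO over WT of 2.68 in PF4-Cre (19 counts in KO and 7 in WT, interval 1.08 to 7.55) and 0.231 in ROSA-Cre (4 counts in KO and 19 in WT, interval 0.0573 to 0.696). Ndufab1, the mitochondrial acyl carrier protein found in complex I, had 1.12 in PF4-Cre (1.05 to 1.19) and 0.824 in ROSA-Cre (0.736 to 0.921). Ndufb11, an X-linked complex I subunit that shares exonic sequence with Rbm10, had 0.942 in PF4-Cre (0.898 to 0.988) and 1.10 in ROSA-Cre (1.02 to 1.19). The intervals cover counting error only, each ratio compares 1 library with 1 library, and the difference between models was not tested.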

How the results depend on the processing

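No paired analysis by replicate number was possible because the labels give none; Cre model, as a term, pairs the genotypes. The median log2 fold change of the nuclear members (-0.45) kept its direction under every alternative run, with values from -0.58 to -0.29 with 1 library left out. The number of nuclear members lower (38) was 35 with DESeq2 size factors, 26 with library totals and 28 with TMM over nuclear protein-coding genes. Other settings gave similar numbers: the DESeq2 Wald test (36), a minimum mean of 5 CPM (28), edgeR's earlier quasi-likelihood procedure (32), robust estimation of the prior (35) and the GC and length correction (27). It was 2 without a filter on low counts, 0 without the Cre model term and 0 with any 1 library left out. Fits with 1 library left out had genotype alone (Cre model alone for its effect), here and below, so a library's part cannot be told apart from the term's. In them, the lone sample of a group is assumed to vary like the others. Of all genes tested, 2.4% were lower without a filter, 11.3% after the GC and length correction and 0.03% without the Cre model term. The number of mitochondrial genes lower (0) was 1 by the DESeq2 Wald test and 1 after the GC and length correction, mt-Nd1 in both. The number higher (2) was 0 without the Cre model term and 0 to 1 with 1 library left out. The median of the mitochondrial genes (-0.07) was 0.019 at a mean of at least 5 CPM and -0.35 to 0.24 with 1 library left out, with positive values of 0.24 without PF4-Cre WT and 0.15 without ROSA-Cre KO.

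For the Cre model effect, the nuclear members lower (15) were 4 without a filter, 3 after the GC and length correction, 0 without the genotype term and 0 with any 1 library left out, and those higher (0) were 1 at a mean of at least 5 CPM and 1 after the GC and length correction. The nuclear members lower by 1.5-fold in PF4-Cre (2) were 45 at the smaller limit of a ratio of 0.8, 0 at 2-fold and 1 under each of the other scalings, DESeq2 size factors, library totals and TMM over nuclear protein-coding genes. Those higher in PF4-Cre (1) were 2 at the smaller limit. In ROSA-Cre those lower (44) were 75 at the smaller limit, 7 at 2-fold and 29 after the GC and length correction, and those higher (0) were 2 at the smaller limit and 1 after that correction. For the Cre model effect and the fold limits, the shares of all genes under these alternatives are not given here. The numbers therefore cannot be read as particular to the nuclear members. The summed nuclear ratio in PF4-Cre (0.81) was 0.854 as a share of nuclear protein-coding counts, 0.848 with library totals and 0.815 without Atp5b, the most abundant member, and in ROSA-Cre (0.691) it was 0.723, 0.716 and 0.704. The mitochondrial mRNA ratio in PF4-Cre (0.929) was 0.98, 0.973 and, without mt-Co1, 0.87, and in ROSA-Cre (0.976) it was 1.02, 1.01 and 0.888. Pprc1 (-0.63) ranged from -1.21 to 0.069 with 1 library left out and changed sign without ROSA-Cre WT. Of up to 90 named genes, 78 to 88 kept their direction and side of the threshold under other scalings, tests, priors, the GC and length correction and the 5 CPM minimum, 50 without a filter, and 33 with any 1 library left out or without the Cre model term. The cause of these shifts was not tested. The ROSA-Cre libraries have the fewest counts and limit the precision of genes such as Cox7a1 and Cox4i2.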
